A study of Homo sapiens with 2 samples.

Results

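LIN28A, LIN28B, IGF2BP1, IGF2BP2, IGF2BP3, HMGA1, HMGA2, DICER1, TUT4 and DIS3L2 were taken as a named list of 10 genes of the let-7 axis, out of 62700 genes in the gene table, and each was found by its symbol. The cells were TCam-2, an established human seminoma line of the testis, transduced with DDX53-FLAG so that the RNA helicase gene DDX53 is overexpressed. Polyadenylated RNA was sequenced in 2 replicate libraries of this single group, with 24137664 reads in genes in replicate 1 and 22198929 in replicate 2. The study's controls, non-transduced WT cells and cells that received GFP-FLAG, belong to another series and were not analysed here, so no effect of DDX53 is given. The promoter of the construct and whether the transduced cells are a clone are not given in the sources used here. Nothing states that the replicates are separate cultures, so their spread, and any p-value drawn from it, may be technical. In such bulk RNA, fewer cells expressing a gene and less RNA per cell cannot be told apart.

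LIN28 proteins bind precursors of the let-7 microRNAs and block their maturation. TUT4 adds a tail of uridines to precursors held by LIN28, and DIS3L2 is the exonuclease that degrades the tailed RNA, while DICER1 cuts precursors into mature microRNAs. Mature let-7 in turn silences mRNAs whose 3′ UTRs pair with its seed, among them those of LIN28, of the IGF2BP proteins, which bind and stabilise mRNAs, and of HMGA2, an architectural chromatin protein. High LIN28 with low let-7 is known from pluripotent and primordial germ cells and from germ cell tumours.

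The cells carried the markers of their label. All 7 germ cell and seminoma markers reached 1 CPM (a unit of reads scaled to the total of reads in genes) in both libraries, with a summed level of 4163 CPM in each. Most of that sum came from POU5F1, at 1891 and 1921 CPM, TFAP2C, at 1255 and 1247 CPM, and NANOG, at 705 and 691 CPM. NANOS3 was the lowest of the 7, at 4.97 and 6.08 CPM. Of 3 embryonal carcinoma markers 2 reached 1 CPM in both libraries, with 133 CPM (replicate 1) and 106 CPM (replicate 2) over the list. Most of this was DNMT3B, at 124 and 98.4 CPM, while the third marker, SOX2, was at 0.994 and 1.08 CPM. Of 5 testis somatic markers 2 did so, with a summed 14.3 CPM in replicate 1 and 10.7 CPM in replicate 2. Of 4 fibroblast markers 3 did so, with a summed 474 and 448 CPM, mostly from the collagen gene COL1A2 at 455 and 424 CPM, while DCN had 1 read in each library. The lymphocyte markers PTPRC and CD3E had no read in either library. DDX53 itself had 146 reads (6.05 CPM) in replicate 1 and 147 reads (6.62 CPM) in replicate 2. Corrected for transcript length, its mean level was above that of 16.3% of detected genes. These levels do not tell the construct from the endogenous gene, and with no control here they do not show overexpression.

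The let-7 sequences show what the genes of the axis act on. The RefSeq set for GRCh38.p14 held 9 different mature 5p sequences of the family, all with the same seed, bases 2 to 8 from the 5′ end, here in capitals.
let-7a-5p: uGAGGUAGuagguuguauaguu
let-7b-5p: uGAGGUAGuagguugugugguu
let-7c-5p: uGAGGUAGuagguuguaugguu
let-7d-5p: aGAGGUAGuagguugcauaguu
let-7e-5p: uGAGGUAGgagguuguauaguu
let-7f-5p: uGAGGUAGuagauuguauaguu
let-7g-5p: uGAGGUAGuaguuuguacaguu
let-7i-5p: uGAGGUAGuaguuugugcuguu
miR-98-5p: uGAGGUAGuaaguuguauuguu
Mature microRNAs and their short hairpins are not captured by libraries of polyadenylated RNA of this kind: all 12 hairpin genes of the family had no read in either library, which says nothing of mature let-7. A count of 0 allows up to 3 reads, 0.124 CPM in replicate 1 and 0.135 CPM in replicate 2, from counting error only. This limit of 3 reads is lower than the upper end of the 95% Wilson interval for 0 reads, 0.159 CPM for MIRLET7A1 in replicate 1 and 0.173 CPM in replicate 2.

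LIN28 proteins recognise let-7 precursors through a GGAG motif in the terminal loop. After the mature 5p arm, GGAG (searched on the hairpin's own strand) was found in 9 of 12 hairpins of the family, and in 18.9% of the 798 hairpins in the set with a located 5p arm. Both counts also take in the 3p arm and what follows it. Between the arms, where both are located, 8 hairpins of the family held GGAG, and no share over all hairpins is given for this. The 3 hairpins without a match anywhere after the 5p arm were MIRLET7A3, MIRLET7B and MIR98. A pair of hairpins with the motif and a pair without it are shown from RefSeq (GRCh38.p14), with GGAG in capitals.
MIRLET7A1, chr9:94175957-94176036, plus strand: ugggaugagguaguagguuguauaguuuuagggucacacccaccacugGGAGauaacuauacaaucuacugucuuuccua
MIRLET7G, chr3:52268278-52268361, minus strand: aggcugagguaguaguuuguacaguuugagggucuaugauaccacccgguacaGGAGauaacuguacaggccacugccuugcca
MIRLET7A3, chr22:46112749-46112822, plus strand: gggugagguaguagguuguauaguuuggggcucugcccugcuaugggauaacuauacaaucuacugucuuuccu
MIRLET7B, chr22:46113686-46113768, plus strand: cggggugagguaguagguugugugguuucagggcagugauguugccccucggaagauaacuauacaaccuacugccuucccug
These letters are a description of the sequence, and no binding was measured.

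LIN28A and LIN28B were both well expressed. LIN28A (ENSG00000131914.11) lies on the plus strand of chromosome 1 from 26410778 to 26429722 (GENCODE 29, GRCh38). It received 11754 reads in replicate 1 (487 CPM, with a 95% Wilson interval of 478 to 496 CPM) and 9950 in replicate 2 (448 CPM, 439.5 to 457). The library intervals did not overlap, and replicate 2 was the lower one. LIN28B (ENSG00000187772.8), on chromosome 6 from 104936616 to 105083332, received 3129 reads in replicate 1 (129.6 CPM, 125 to 134) and 2890 in replicate 2 (130.2 CPM, 126 to 135). Its intervals overlapped almost wholly.

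Per length, LIN28A was the more abundant paralog. Summed over the transcripts of the gene, its level was 169 TPM (a level corrected for transcript length that sums to the same total in each library) in replicate 1 and 156 TPM in replicate 2, against 38.7 and 36.6 TPM for LIN28B. The ratio of LIN28A to LIN28B was 4.31 ± 0.0616 (SD, n = 2), and LIN28A held 81.2% ± 0.218 (SD, n = 2) of the LIN28 total. When reads were divided by the merged exon length in place of TPM, the ratio was 5.39 ± 0.332 (SD, n = 2). In both measures and both libraries LIN28A lay above LIN28B. LIN28A exceeded 93.4% and LIN28B 75.0% of the 13380 detected genes that have a TPM.

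LIN28A was split between transcripts that encode the same protein. LIN28A-202 and LIN28A-201 both have 209 codons and differ in the annotated 3′ UTR, of 3264 and 2753 bases. LIN28A-202 held 56.5% of the summed TPM in replicate 1 and 48.5% in replicate 2, so the leading transcript changed between the libraries. For LIN28B the transcript of 250 codons, LIN28B-201, held 79.9% and 82.5%. The rest was LIN28B-202, a model of 912 bases whose coding region is annotated as incomplete. The depth behind a transcript's TPM is unknown, so these shares have no interval.

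**Figure D1:**
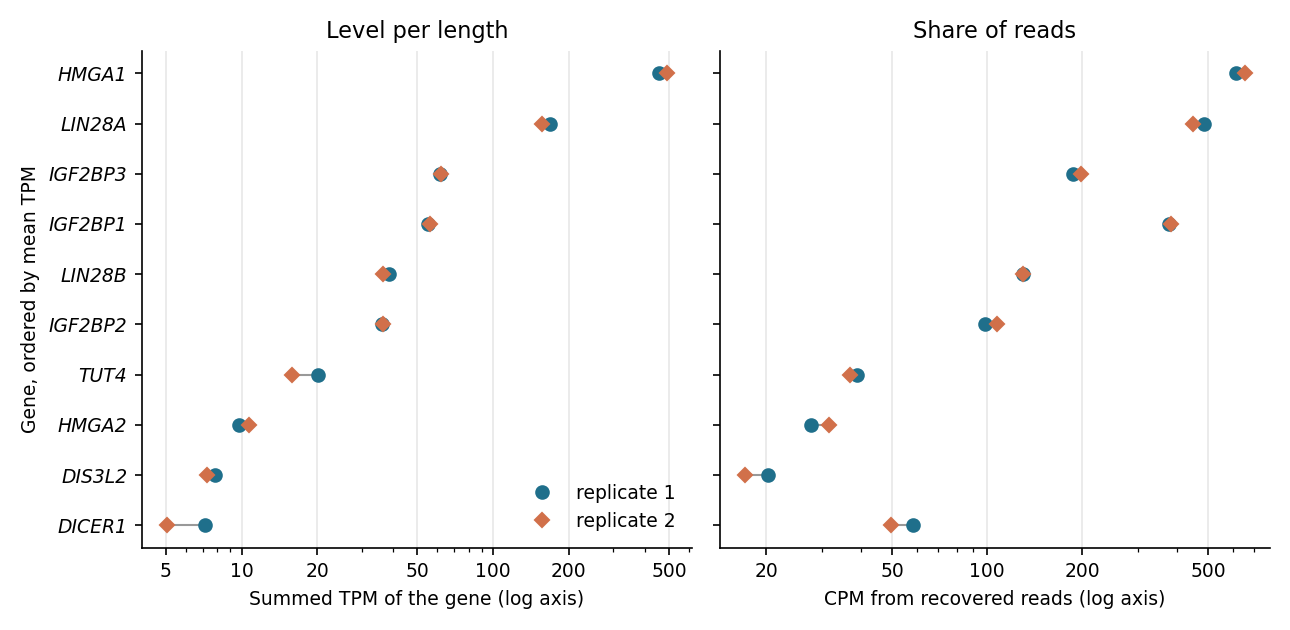
Level of each gene in replicate 1 (circles) and replicate 2 (diamonds), as summed TPM on the left and as CPM on the right, both on log axes, with genes ordered by mean TPM. HMGA1 and LIN28A lead in both panels, while IGF2BP1 and DICER1, which have long transcripts, stand higher by CPM than their rank by TPM.

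The genes that tail, degrade or process let-7 precursors were much lower than LIN28A. TUT4 (ENSG00000134744.14), the terminal uridylyltransferase on chromosome 1 from 52408282 to 52553487, had 936 reads in replicate 1 (38.8 CPM, 95% Wilson interval 36.4 to 41.3) and 818 in replicate 2 (36.8 CPM, 34.4 to 39.5). DIS3L2 (ENSG00000144535.20), the exonuclease gene on chromosome 2 from 231961245 to 232344350, had 489 reads (20.3 CPM, 18.5 to 22.1) and 379 reads (17.1 CPM, 15.4 to 18.9). DICER1 (ENSG00000100697.17), on the minus strand of chromosome 14 from 95086228 to 95158010, had 1408 reads (58.3 CPM, 55.4 to 61.5) and 1100 reads (49.6 CPM, 46.7 to 52.6). Only for DICER1 did the library intervals not overlap, with replicate 2 lower.

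Per length, DICER1 was at 7.14 TPM in replicate 1 and 5.04 TPM in replicate 2, the lowest of the 10 genes, and above 34.4% of detected genes. DIS3L2 was at 7.84 and 7.31 TPM. TUT4 was at 20.2 and 15.8 TPM. The TPM of TUT4 depends on short models: its transcripts with a complete coding region summed to 6.51 TPM in replicate 1 and 6.13 TPM in replicate 2, or 32.3% and 38.8% of the gene. The short models TUT4-211, of 1010 bases, and TUT4-209, of 506 bases, held 25.5% and 19.4% in replicate 1 and 23.4% and 13.0% in replicate 2. The leading transcript of TUT4 therefore changed from TUT4-211 in replicate 1 to TUT4-201, of 1645 codons, in replicate 2. The level of TUT4 was 17.98 ± 3.09 TPM (SD, n = 2) over all its transcripts and 6.32 TPM over the complete ones.

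DIS3L2 and DICER1 were mostly made of full-length models. DIS3L2-202, of 885 codons, held 69.6% of its TPM in each library. The shorter DIS3L2-201, of 603 codons, held 15.3% in replicate 1 and 10.8% in replicate 2. DICER1 transcripts of 1922 codons held 93.2% in replicate 1 and 100% in replicate 2, with DICER1-201 leading at 60.4% and 66.0%. DICER1-AS1, a partner on the opposite strand, had 71 and 75 reads. The labels name a stranded kit but not how reads were counted, so a part of the reads of either gene may belong to the other.

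The 3 IGF2BP genes were expressed together, with mean TPM within 1.70-fold of each other. IGF2BP1 (ENSG00000159217.10), on chromosome 17 from 48997412 to 49055650, had 9100 reads in replicate 1 (377 CPM, 95% Wilson interval 369 to 385) and 8480 in replicate 2 (382 CPM, 374 to 390.2). IGF2BP2 (ENSG00000073792.16), on chromosome 3 from 185643739 to 185825056, had 2373 reads (98.3 CPM, 94.4 to 102) and 2378 reads (107 CPM, 103 to 112). IGF2BP3 (ENSG00000136231.14), on chromosome 7 from 23310209 to 23470467, had 4524 reads (187 CPM, 182 to 193) and 4400 reads (198 CPM, 192 to 204). IGF2BP1 overlapped between the libraries, IGF2BP3 overlapped narrowly, and IGF2BP2 was higher in replicate 2 without overlap.

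Per length the order within the family depended on the measure. IGF2BP3 was at 61.6 and 61.9 TPM, IGF2BP1 at 55.3 and 55.9 TPM, and IGF2BP2 at 36.1 and 36.5 TPM. Of the family's TPM, IGF2BP3 held 40.2% ± 0.0919, IGF2BP1 36.2% ± 0.0345 and IGF2BP2 23.6% ± 0.0575 (SD, n = 2 each). The ratio of IGF2BP3 to IGF2BP1 was 1.11 ± 0.0036 (SD, n = 2) by TPM and 0.54 ± 0.0164 (SD, n = 2) by reads per merged exon length, so which of them leads is not settled by these files. IGF2BP2 was the lowest of the family in every measure tried, though only 1.05 ± 0.0221 times below IGF2BP3 by reads per merged exon length.

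IGF2BP1 and IGF2BP3 were each nearly 1 transcript. IGF2BP1-201, of 577 codons, held 96.3% and 96.5% of the gene's TPM, and IGF2BP3-201, of 579 codons, held 96.4% and 98.3%. IGF2BP2 instead was split between a form of 556 codons, IGF2BP2-201, with 49.8% in replicate 1 and 48.3% in replicate 2, and a form of 599 codons, IGF2BP2-202, with 38.8% and 46.6%. The shorter coding form led in both libraries.

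HMGA1 was the highest of the 10 genes and HMGA2 was far below it. HMGA1 (ENSG00000137309.21), which encodes a small AT-hook chromatin protein on chromosome 6 from 34236873 to 34246231, had 14806 reads in replicate 1 (613 CPM, 95% Wilson interval 604 to 623) and 14495 in replicate 2 (653 CPM, 642 to 664). HMGA2 (ENSG00000149948.14), its paralog on chromosome 12 from 65824131 to 65966295, had 668 reads (27.7 CPM, 25.7 to 29.9) and 701 reads (31.6 CPM, 29.3 to 34.0). HMGA1 was higher in replicate 2 without overlap of the intervals, and those of HMGA2 overlapped narrowly. By TPM, HMGA1 was at 457 and 491, and HMGA2 at 9.73 and 10.7, a ratio of 46.5 ± 0.651 (SD, n = 2). By reads per merged exon length the ratio was 142 ± 6.96 (SD, n = 2), since the merged exons of HMGA2 span 15403 bases and its leading transcript only 4473.

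HMGA1 has processed pseudogenes that could take or give reads. The 8 annotated HMGA1 pseudogenes had 2 reads in all in replicate 1 and 4 in replicate 2, or 0.0135% and 0.0276% of the reads of HMGA1. The pseudogenes LIN28AP1, LIN28AP2 and DIS3L2P1 had no read in either library. How the authors treated reads that fit several places is not given in the sources used here, so reads of the pseudogenes counted for the parent gene cannot be told apart.

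The splice forms of HMGA1 were both present. Transcripts of 107 codons, the form known as HMGA1a, held 78.4% of the TPM of HMGA1 in replicate 1 and 77.4% in replicate 2, and those of 96 codons, HMGA1b, which lacks a short in-frame stretch, held 21.6% and 22.6%. HMGA2 was almost wholly the full-length form: HMGA2-204, of 109 codons, held 97.1% and 99.0%. HMGA2-201, of 106 codons and with another 3′ end, held 1.99% and 0.955%.

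**Figure D2:**
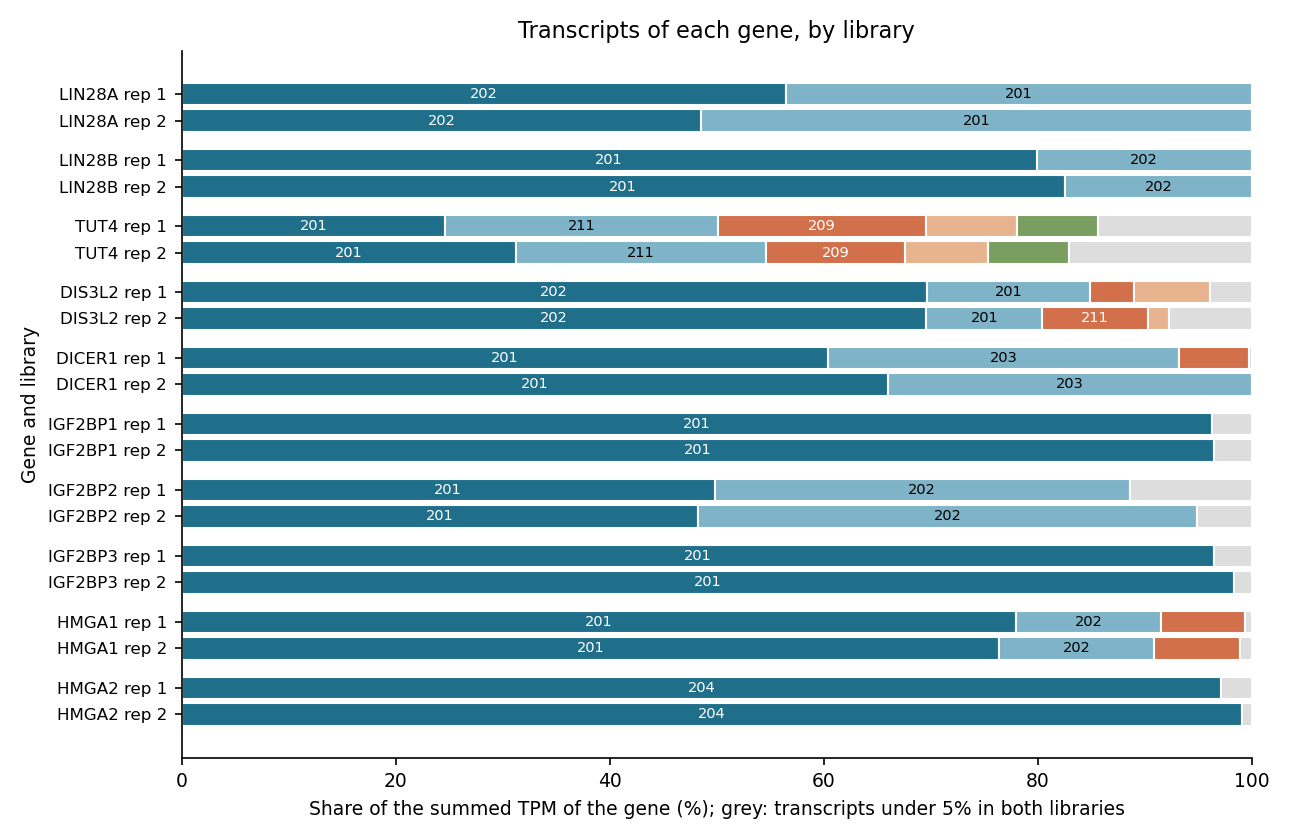
Share of each gene's summed TPM (horizontal axis, %) held by its transcripts in replicate 1 and replicate 2; numbers inside the wider segments are the annotation's transcript numbers, and grey stands for transcripts under 5% in both libraries. LIN28A and IGF2BP2 are each split between a pair of transcripts, TUT4 among 5 above 5%, and IGF2BP1, IGF2BP3 and HMGA2 each rest on a single transcript with over 96%.

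Ordered by mean TPM, the genes ran HMGA1, LIN28A, IGF2BP3, IGF2BP1, LIN28B, IGF2BP2, TUT4, HMGA2, DIS3L2 and DICER1. None of the 9 neighbouring pairs overlapped in the ranges of their 2 libraries, but LIN28B and IGF2BP2 lay only 1.04-fold apart, and with 2 values against 2 no exact test can give a p under 0.33. HMGA1, LIN28A and the 4 genes after them were above the median detected gene, at 12.4 TPM, as was TUT4 when all its models were summed. By reads per merged exon length, HMGA1 and LIN28A kept ranks 1 and 2, IGF2BP1 came next, and the lower end ran DICER1, TUT4, HMGA2 and DIS3L2. The order of the 4 lowest genes thus depended on the measure of length.

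The let-7 seed pairs with CTACCTC in an mRNA, and a following A makes the stronger site of 8 bases. These letters were searched in the sense strand of the 3′ UTR of the leading complete transcript of each gene. Of the 10 genes, 7 held a match, with 16 matches in all. Over the 12080 detected genes with a 3′ UTR, 8.63% held a match, and 3.38% held one of 8 bases. The list was drawn up from known let-7 biology, so its share is a description. The genes' 3′ UTRs were also longer, with a median of 2578 bases against 946, so the share of detected genes with a 3′ UTR of like length that held a match is given beside the counts.

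HMGA2, LIN28B and IGF2BP1 held 4 matches each. For HMGA2 that was 4 in 3003 bases, and 15.4% of 1246 detected genes with a 3′ UTR within 20% of that length held any. For LIN28B it was 4 in 4549 bases, where 23.6% of 763 genes of like length held any. For IGF2BP1 it was 4 in 6206 bases, where 30.7% of 374 such genes held any. Of all detected genes only 9 held 4 or more, with 6 in TRIM71 as the most. LIN28A, IGF2BP2, IGF2BP3 and HMGA1 held 1 each, and of genes of like length 16.9%, 9.81%, 12.4% and 8.39% held any. TUT4, DIS3L2 and DICER1 held none in 3′ UTRs of 660, 567 and 4270 bases, where 4.29%, 3.66% and 22.2% of genes of like length held any. Coding regions and weaker matches were not searched.

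The matches of HMGA2, all 4 of them, and those of 8 bases in LIN28B, IGF2BP1, IGF2BP2, IGF2BP3 and LIN28A are shown as stretches of 24 bases from the GENCODE 29 transcripts (GRCh38), because HMGA2 held the most matches per length of the 10 genes and the others are all of the remaining 8-base matches. Capitals mark the match.
HMGA2, 21 bases after the stop codon, chr12:65963297-65963320, plus strand: cgccaacgttcgatttCTACCTCA
HMGA2, 1256 bases after the stop codon, chr12:65964532-65964555, plus strand: tccccactactcaataCTACCTCt
HMGA2, 1668 bases after the stop codon, chr12:65964944-65964967, plus strand: attgacttgcaaagacCTACCTCc
HMGA2, 2521 bases after the stop codon, chr12:65965797-65965820, plus strand: caatcaaaacacactaCTACCTCt
LIN28B, 44 bases after the stop codon, chr6:105078811-105078834, plus strand: tacccggttgcaaagtCTACCTCA
LIN28B, 2653 bases after the stop codon, chr6:105081420-105081443, plus strand: tgtttacagcaaaaggCTACCTCA
IGF2BP1, 1632 bases after the stop codon, chr17:49051060-49051083, plus strand: ctgtgtgcgaagtaaaCTACCTCA
IGF2BP1, 4269 bases after the stop codon, chr17:49053697-49053720, plus strand: ccagcagtgctagtaaCTACCTCA
IGF2BP1, 4923 bases after the stop codon, chr17:49054351-49054374, plus strand: agtataaatggattaaCTACCTCA
IGF2BP2, 1304 bases after the stop codon, chr3:185644220-185644243, minus strand: aaacacacagaagaagCTACCTCA
IGF2BP3, 560 bases after the stop codon, chr7:23311795-23311818, minus strand: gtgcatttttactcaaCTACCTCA
LIN28A, 905 bases after the stop codon, chr1:26427347-26427370, plus strand: tgcacagcctattgaaCTACCTCA
The first match of HMGA2 starts 21 bases after its stop codon and the first of LIN28B 44 bases after.

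Most TPM of the 7 genes with a match was assigned to transcripts that hold one. For LIN28A, LIN28B, HMGA1 and IGF2BP3 every complete annotated transcript holds one, so no searched transcript could have lacked it. The only other complete transcript of IGF2BP1 has a 3′ UTR of 0 bases. Shares of annotated transcripts do not show where the 3′ UTRs end in these cells. Transcripts with a match held 97.1% of the TPM of HMGA2 in replicate 1 and 99.0% in replicate 2, and 96.3% and 96.5% of that of IGF2BP1. For LIN28B they held 79.9% and 82.5%, and the rest was the incomplete model, which was not searched. All TPM of LIN28A and HMGA1 came from transcripts with a match. HMGA2-201, which ends in another 3′ UTR of 397 bases with no match, had 0.193 TPM in replicate 1 and 0.102 TPM in replicate 2.

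**Figure D3:**
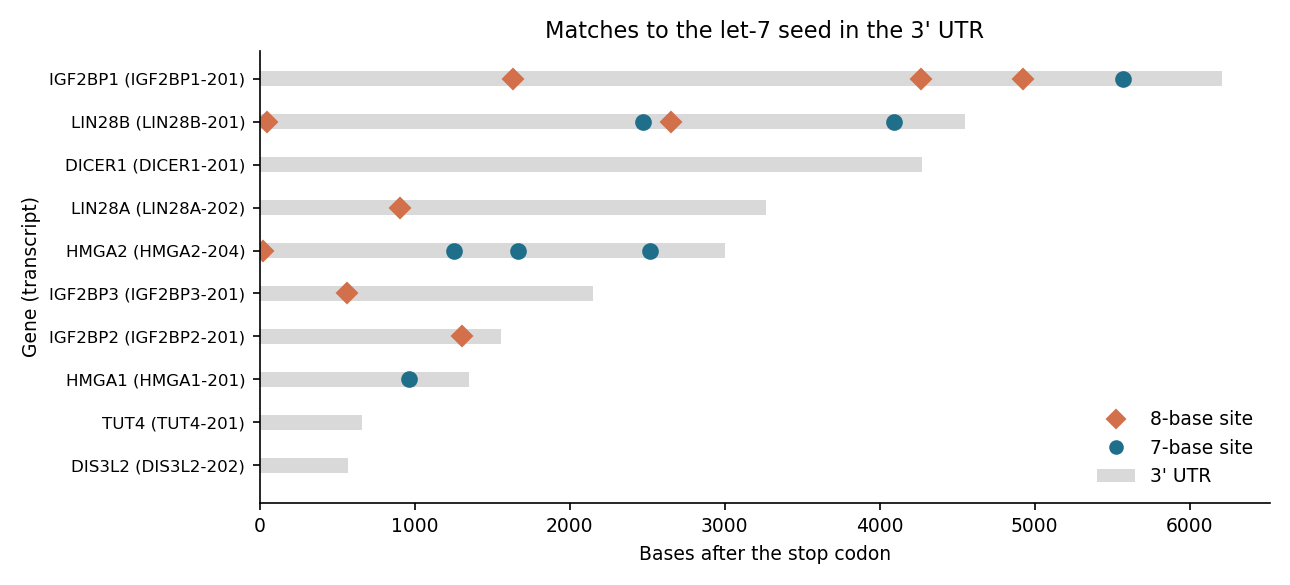
Matches to the let-7 seed along the 3′ UTR of the leading complete transcript of each gene (grey bars, horizontal axis in bases after the stop codon), with 8-base matches as diamonds and 7-base matches as circles. IGF2BP1, LIN28B and HMGA2 hold 4 matches each, and DICER1, TUT4 and DIS3L2 hold none.

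The libraries were then compared for each gene against counting noise. The two-sided exact binomial test in edgeR (Benjamini-Hochberg adjusted over 15299 genes, threshold 0.05) called 5 of the 10 genes, where it called 13.1% of all genes tested. Of the 5, 3 were higher in replicate 2, where 6.78% of all genes were, and 2 were lower, where 6.35% were. Among the 7652 tested genes at or above 18.7 CPM, the mean of DIS3L2 as the lowest of the list, 21.3% were called, since more reads let smaller differences pass. The test compares 2 libraries, not conditions, and has no replicate.

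The called differences were small. LIN28A was lower in replicate 2, with a log2 difference of -0.12 (exact binomial test, adjusted p = 6.27e-07), and DICER1 was lower with -0.23 (adjusted p = 0.00159). HMGA1 was higher in replicate 2 with 0.090 (exact binomial test, adjusted p = 3.19e-07), IGF2BP2 with 0.12 (adjusted p = 0.0178) and IGF2BP3 with 0.080 (adjusted p = 0.0333). IGF2BP3 missed the threshold when all genes with a read were tested (exact binomial test, adjusted p = 0.0710) and without TMM scaling (adjusted p = 0.0601). By summed TPM in place of CPM the log2 differences of IGF2BP2 and IGF2BP3 were only 0.018 and 0.0083, while that of DICER1 was -0.43. For HMGA2 the difference was 0.18 (exact binomial test, adjusted p = 0.0775), and for DIS3L2 it was -0.23 (adjusted p = 0.0954), or -0.090 by summed TPM. TUT4, LIN28B and IGF2BP1 had differences of -0.07, 0.0061 and 0.019, with adjusted p of 0.635, 0.881 and 0.4996 in the exact binomial test. These are log2((CPM + 1)/(CPM + 1)), which understates low genes, and all 10 lay between the 5th and 95th percentile of the 13898 genes that average 1 CPM or more, -0.30 and 0.27.

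Transcript length moved with the differences between the libraries. Genes whose leading transcript has 8000 bases or more, 536 in number, had a median log2 difference of -0.094, and 73.5% of them were lower in replicate 2. The 5043 genes of 2000 to 4000 bases had a median of 0.0017. DICER1, of 10277 bases, belongs to the long group, and so does IGF2BP1, of 8274 bases, which was 0.019 higher. The part of length in the difference of DICER1 was not tested.

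**Figure D4:**
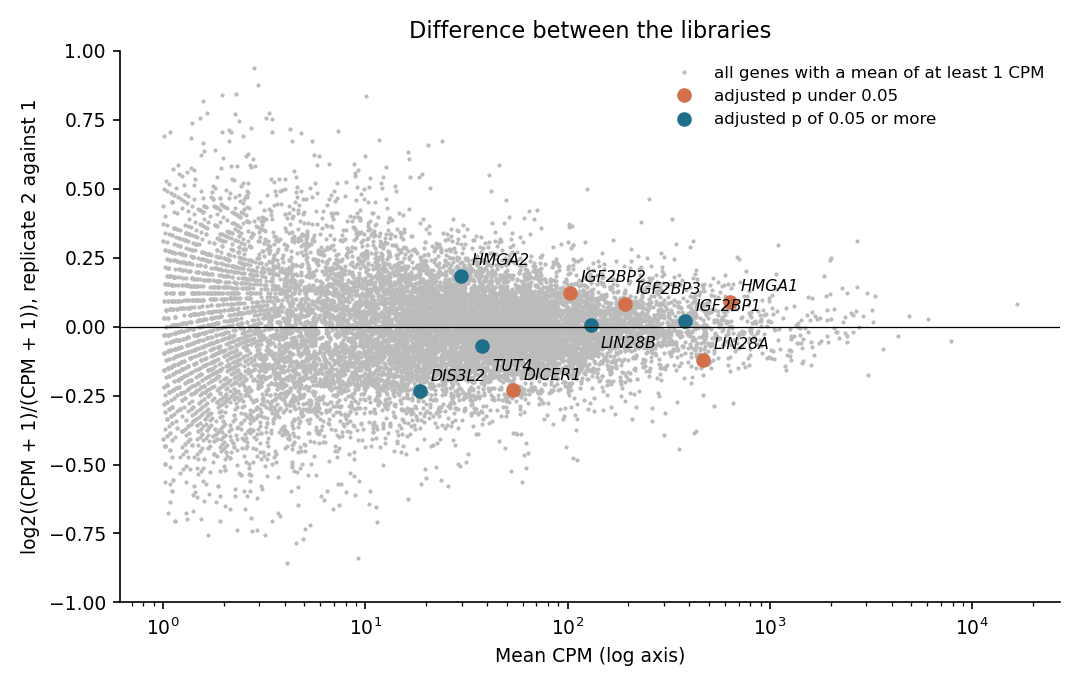
Log2 difference of replicate 2 against replicate 1 (vertical axis) by mean CPM (log axis) for all genes averaging 1 CPM or more (grey) and the 10 genes (orange where the adjusted p was under 0.05, blue otherwise). All 10 genes lie between -0.23 and 0.18, inside the cloud of all genes.

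The other genes of the pathway were taken from 6 lists. Of 62 different genes found in the table, 57 reached 1 CPM in both libraries, where 13604 of all 62700 genes did. The binomial test called 16 of the 57 tested, 4 higher and 12 lower in replicate 2. Of all genes 13.1% were called, 6.78% higher and 6.35% lower, and 21.3% were called among genes at or above 18.7 CPM.

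All 10 microRNA processing genes were detected. DROSHA, which makes the first cut in the nucleus, was at 90.7 and 86.4 CPM, and XPO5, the export receptor of precursors, at 134 and 127 CPM. RAN, the GTPase that drives export, was the highest at 891 and 909 CPM, and AGO3 the lowest at 10.98 and 10.9 CPM. The test called 2 of the 10, near the 13.1% of all genes and the 21.3% of genes at or above 18.7 CPM: PRKRA, a partner of Dicer, was higher in replicate 2, at 36.3 and 42.9 CPM, and AGO2, the Argonaute that cuts its targets, was lower, at 114 and 93.1 CPM. The list's median log2 difference was -0.03, beside -0.0077 over all genes.

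All 10 regulators of let-7 precursors were detected. HNRNPA1, an RNA-binding protein gene, was the highest at 3234 and 2860 CPM, and ZC3H12A, an endoribonuclease gene, the lowest at 7.33 and 7.12 CPM. TUT7, which acts like TUT4, was at 10.1 and 8.96 CPM, or 2.87 and 2.16 TPM, below TUT4 on both scales. TRIM71, a let-7 target itself and a ubiquitin ligase of stem cells, was at 336 and 270.1 CPM. The test called 4 genes, TRIM71, KHSRP, HNRNPA1 and DDX5, all lower in replicate 2, where 6.35% of all genes were, and the list's median log2 difference was -0.046. TRIM71 had the largest of these differences, -0.31 (exact binomial test in edgeR, adjusted p = 5.6e-33). Its transcript, of 8685 bases, is long like that of IGF2BP1, whose log2 difference was 0.019. The part of length in the difference of TRIM71 was not tested.

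Of 8 genes that host let-7 hairpins, 7 were found by symbol and 4 were detected. HUWE1, a large ubiquitin ligase gene, was at 477 and 365 CPM and was lower in replicate 2 (log2 difference -0.38, exact binomial test in edgeR, adjusted p = 3.3e-70). SPACA6 was at 2.03 and 2.48 CPM, MIRLET7IHG at 1.91 and 1.67 CPM, and MIRLET7A1HG at 1.24 and 1.26 CPM. MIRLET7BHG had no read, MIR99AHG had 1 read in replicate 1, and MIR100HG had 1 and 6 reads. The host genes with no protein product were thus at or below 2 CPM in both libraries.

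All 22 further let-7 targets were detected. CCND2, a D-type cyclin, was the highest at 446 and 428 CPM, and CDK6, a kinase partner of those cyclins, the lowest at 2.86 and 1.98 CPM. MYCN was at 71.2 and 61.0 CPM, and PRDM1, a regulator of germ cell fate, at 95.8 and 84.1 CPM. The test called 6 of them, where 13.1% of all genes and 21.3% of those at or above 18.7 CPM were called. CCND1 and E2F5 were higher in replicate 2, where 6.78% of all genes were, and MYCN, IGF1R, PRDM1 and SALL4 were lower, where 6.35% were. The median log2 difference was -0.033.

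Of 7 RNAs known to be bound by IGF2BP proteins 5 were detected. ACTB was the highest, at 7971 and 7686 CPM. H19, an imprinted noncoding RNA, was at 158 and 187 CPM. The test called 2 of the 5 tested, where 13.1% of all genes and 21.3% of those at or above 18.7 CPM were called. These were H19, higher in replicate 2, and ACTB, lower in replicate 2. IGF2, for which the family is named, had no read in either library and 0 TPM, and CD44 had 3 and 13 reads. The 7 partners of IGF2BP1 were all detected, from HNRNPU at 1263 and 1133 CPM to FMR1 at 42.2 and 43.2 CPM. Only HNRNPU was called, lower in replicate 2, where 6.35% of all genes were.

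**Figure D5:**
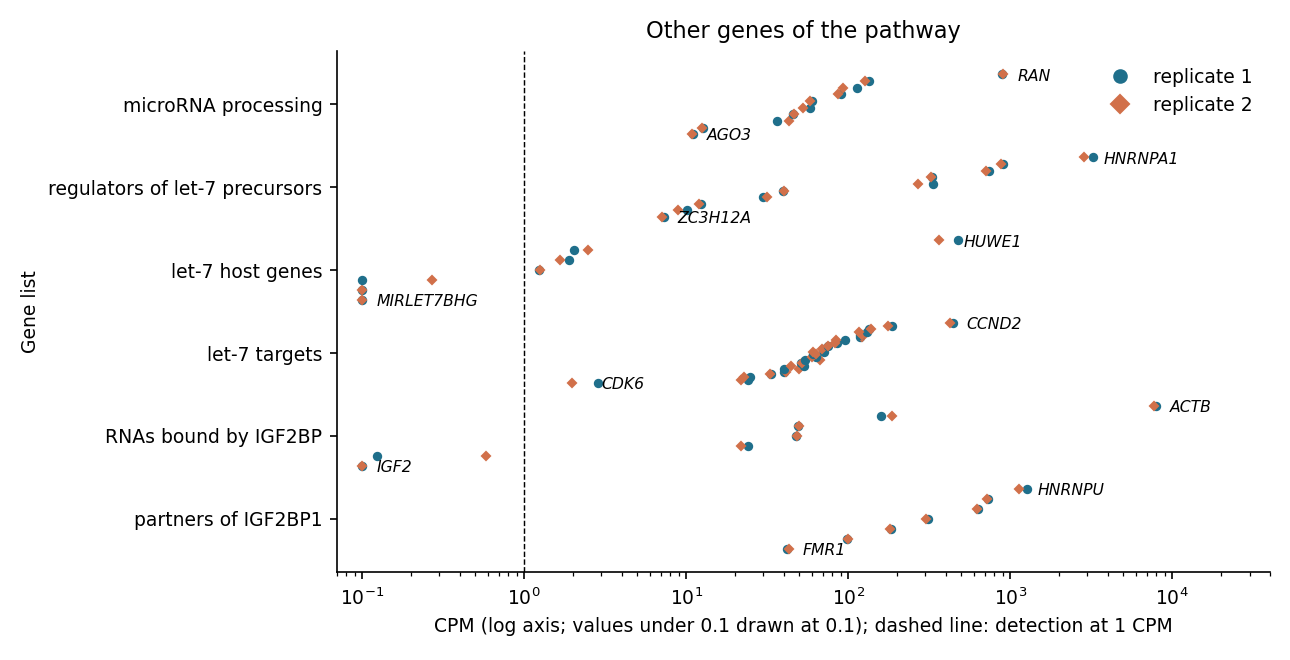
CPM of the other genes of the pathway in replicate 1 (circles) and replicate 2 (diamonds) by list, on a log axis, with the highest and lowest gene of each list named and 1 CPM as the dashed line. Genes below 1 CPM occur among the let-7 host genes and the RNAs bound by IGF2BP, and in no other list.

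The deposited tables were compared for the 10 genes, because a gene whose reads are shared with a copy can differ between them. Reads were set against the number predicted from TPM times transcript length. The median log2 ratio over the genes was 0.17 in replicate 1 and 0.19 in replicate 2, where it was 0.14 and 0.15 over 13211 detected genes. The ratios ran from -0.049 for HMGA2 to 0.35 for IGF2BP1 in replicate 1, and from -0.015 for HMGA2 to 0.51 for DICER1 in replicate 2. None of the 10 differed by as much as 2-fold between the tables. Among the pathway genes the tables were further apart for FMR1, with a log2 ratio of 2.75, and for TUT1, with -1.60, in replicate 1, so TPM and CPM of these genes are uncertain.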

How the data were processed

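The transcript table holds TPM per Ensembl transcript, deposited by the authors. The gene table is named as CPM, but the signal the authors deposited is, for each library, the read count of a gene over a common factor. Trim Galore 0.6.10, STAR 2.7.11a, Salmon 1.10.2, DESeq2 and GRCh38 are named in the submitters' processing notes, while the annotation and the counting options are not given in the sources used here. The headers name the libraries and not the identifier column, so the first name was read as the first column of values, and 0 value columns went unused.

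A single read is worth 1.02 in replicate 1 and 1.12 in replicate 2, and dividing by it gave whole reads for 100% of values above 0 (within 0.001 reads), and CPM is relative to their sum. Genes of transcripts came from GENCODE 29, matched on identifiers stripped of their version: 201667 of 251955 matched, with 94.8% of TPM in each library. Later transcripts are left out, so a gene's summed TPM may miss some. A 3′ UTR was taken from the annotated stop codon to the end of a transcript with a complete coding region. Wilson intervals are at 95% and cover counting error only, since reads carry no molecular identifiers.

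The libraries were compared with edgeR 4.0.16 (binomTest, TMM, filterByExpr) in R 4.3.3. The test was checked on simulated data. Alternatives were DESeq2 1.42.0 size factors, other thresholds, pseudocounts and measures of length, and each library alone. The 10 genes, the 6 pathway lists, the markers and the rule for named genes (the 10 genes, genes of the lists, their pseudogenes and transcripts of at least 5%) were chosen with earlier results of these data known. Genes and transcripts outside this rule (DICER1-AS1, the let-7 hairpin genes, HMGA2-201 and genes with 4 or more let-7 matches) were chosen after their values were seen. A few genes of the lists and markers are counted but not reported here by name. No gene is named for a like pattern, since 2 libraries of 1 group hold none.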

Additional observations from a re-analysis of the deposited data

How the results depend on the processing

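No paired analysis was possible because both libraries are of the same group. All 10 genes were detected under each alternative tried: 0.1 and 5 CPM, 1 TPM, and each library alone. The pathway genes detected, 57, numbered 53 to 58 under these settings. Of the 45 ordered pairs of genes by TPM, 40 kept their order with reads per merged exon length and 42 with reads per length of the leading transcript. The genes called numbered 4 in place of 5 without TMM scaling and with all genes with a read tested, and 5 with DESeq2 size factors. The genes higher in replicate 2 were 6, and 5 with TPM, where LIN28B, not called, turned to -0.079. With TPM the difference of DICER1 was -0.43 and that of TUT4 -0.33, against -0.23 and -0.07, and those of IGF2BP2 and IGF2BP3 shrank to 0.018 and 0.0083; the cause was not tested. The leading transcript was the same in both libraries for 8 of 10 genes, also among coding transcripts only. The median log2 ratio of reads to prediction, 0.18, was 1.45 when TPM was not multiplied by length, which follows from leaving length out. The let-7 matches numbered 16 in the leading transcripts and 12 in those with the longest 3′ UTR, since HMGA2-210, at 0 TPM, holds none; this and the TUT4 sum over complete transcripts, 6.32 TPM against 17.98 TPM, were chosen after seeing the data. Depth limits the lowest genes: the interval of DIS3L2 in replicate 2 spans 15.4 to 18.9 CPM.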

Other observations

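Genes other than the list were also rich in let-7 matches and expressed in these cells. Of 12080 detected genes, the 9 with 4 or more matches to CTACCTC in the 3′ UTR were TRIM71, NR6A1, HIC2, HMGA2, IGDCC3, IGF2BP1, LIN28B, SMC1A and ZBTB37. TRIM71, with 6 matches in 6015 bases, was at 50.1 and 39.9 TPM. NR6A1, an orphan nuclear receptor gene with 5 matches in 5430 bases, was at 7.67 and 7.72 TPM. HIC2, a transcriptional repressor gene, was at 43.9 and 40.1 TPM, and SMC1A, a cohesin subunit gene, at 46.3 and 43.0 TPM. IGDCC3 was at 7.62 and 7.56 TPM with 4 matches in only 1782 bases, and ZBTB37 at 1.94 and 1.63 TPM with 4 in 17425 bases. Their levels ranged from below to above the median detected gene, at 12.4 TPM. No let-7 level was measured, so these values do not bear on repression.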
